A study of Homo sapiens with 2 samples.

Results

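ANGPTL4 is a secreted glycoprotein of the angiopoietin-like family, and it was followed here together with 8 genes whose products process it or bind it. The members were the proprotein convertases FURIN, PCSK5 and PCSK7, the syndecans SDC1 and SDC4, the lipase LPL and the neuropilins NRP1 and NRP2. They were chosen by gene symbol, and all 9 were found, with 1 row each, among 55771 symbols in the tables. RNA came from BFTC 905, an established human cell line from a urothelial carcinoma, grown in RPMI-1640 medium with fetal bovine serum. The ANGPTL4 library was made from cells carrying a plasmid that overexpresses ANGPTL4, and the vector control library from cells carrying pcDNA3.1, the empty plasmid. Both lines were stable and selected with 400 µg/ml G418, so each group also carried the drug resistance of its plasmid. The labels speak of stable clones and do not say how many clones made up each line. With 1 library in each group there is no replicate check and no p-value, and what follows describes these 2 libraries rather than the conditions.

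The precursor of ANGPTL4 is cut by proprotein convertases into an N-terminal coiled-coil part, which inhibits lipoprotein lipase, and a C-terminal fibrinogen-like part, which acts on adhesion, vessels and tumour cells. Convertases are Golgi and cell surface proteases that cut after basic residues, and FURIN is the most widely expressed of them. Syndecans are transmembrane proteoglycans whose heparan sulfate chains hold secreted proteins, lipoprotein lipase among them, at the cell surface. Neuropilins are co-receptors for class III semaphorins and VEGF, and have been reported as receptors of ANGPTL4 on endothelial cells.

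The site at which the convertases cut is shown because it links the ligand to the 3 protease genes. In the longest coding transcript of ANGPTL4 in GENCODE release 29 (1879 bases, 7 exons) the 4 basic residues arginine-arginine-lysine-arginine were found once. They are codons 161 to 164 of 406, in exon 3. Other basic runs were not sought. The cut leaves 164 codons on the N-terminal side and 242 on the C-terminal side. The 12 capital bases are the 4 codons, and 45 bases stand on either side (plus strand, chr19:8366208-8366309, GRCh38).
ANGPTL4 convertase site: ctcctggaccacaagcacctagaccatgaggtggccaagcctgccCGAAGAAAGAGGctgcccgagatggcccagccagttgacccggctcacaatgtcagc

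The promoters of ANGPTL4 and of SDC4 are shown because SDC4 was the most abundant of the 9 messages, and because ANGPTL4 is read in the vector control library from its own chromosomal gene. The series concerns epigenetic silencing of ANGPTL4, and CpG dinucleotides, the bases that DNA methylation acts on, are in capitals. No methylation was measured in these libraries. Each window holds 250 bases before the start of the gene and 50 after it, from RefSeq (GRCh38.p14). The ANGPTL4 window (plus strand, chr19:8363905-8364204) held 20 CpG and the SDC4 window (minus strand, chr20:45348375-45348674) held 33.
ANGPTL4 promoter: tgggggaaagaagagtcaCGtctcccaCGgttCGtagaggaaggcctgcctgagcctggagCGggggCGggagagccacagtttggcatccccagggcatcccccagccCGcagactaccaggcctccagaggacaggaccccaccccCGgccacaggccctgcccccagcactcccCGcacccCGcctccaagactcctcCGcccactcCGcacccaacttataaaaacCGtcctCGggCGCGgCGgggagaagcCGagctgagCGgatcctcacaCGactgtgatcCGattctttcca
SDC4 promoter: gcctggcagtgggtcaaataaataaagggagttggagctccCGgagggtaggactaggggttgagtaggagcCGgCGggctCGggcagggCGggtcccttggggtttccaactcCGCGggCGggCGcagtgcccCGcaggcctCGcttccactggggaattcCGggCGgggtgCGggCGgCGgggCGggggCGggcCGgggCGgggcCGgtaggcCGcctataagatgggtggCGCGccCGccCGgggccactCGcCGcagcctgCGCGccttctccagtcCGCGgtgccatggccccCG

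Of all 35116 RefSeq promoter windows, 96.0% held at least 1 CpG, and the median was 14. The ANGPTL4 window had more CpG than 58.8% of them and the SDC4 window more than 82.8%. The 6-base GC box, GGGCGG on either strand, was counted without separating it from the CpG it contains. It occurred 2 times in the ANGPTL4 window and 8 times in the SDC4 window, and 44.95% of all windows held it. RefSeq windows were used for 7 of the 9 members. Member windows on chromosome 8, where LPL lies, were left out, and none was matched for NRP1. PCSK7 and NRP2, both at low levels, had 39 and 33 CpG, and PCSK5, the convertase with the fewest reads of the 3, had 20. The order of these genes by CpG number differed from their order by level. The 4 FURIN start sites ranged from 3 to 44 CpG and the 2 SDC1 start sites from 23 to 27.

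Levels are given in RPKM, that is, reads divided by exon length and by library size, as computed by the authors. Whole reads were obtained at a depth of 3233596 reads for the ANGPTL4 library and 6572767 for the vector control library, so that the ANGPTL4 library has the larger counting error. The 13 mitochondrially encoded protein genes took 8.71% of reads in the ANGPTL4 library and 5.11% in the vector control library. Epithelial markers were abundant in both libraries. KRT5, the basal keratin, was at 468.9 RPKM in the ANGPTL4 library and 434.2 RPKM in the vector control library, and the cadherin gene CDH1 was at 124.3 RPKM in the ANGPTL4 library and 123.2 RPKM in the vector control library. Of 13 urothelial and epithelial markers 11 reached 1 RPKM in a library, 4 of them higher and 7 lower in the ANGPTL4 library, with a median log2 ratio of -0.12. The epithelial adhesion gene EPCAM was at 53.4 RPKM in the ANGPTL4 library and 68.0 RPKM in the vector control library (ratio 0.785, 95% counting interval 0.701 to 0.878), and the nuclear receptor gene PPARG at 4.13 RPKM in the ANGPTL4 library and 6.09 RPKM in the vector control library (0.678, 0.506 to 0.898). The marker TP63 was higher, at 39.4 RPKM in the ANGPTL4 library and 32.1 RPKM in the vector control library. Its ratio was 1.23 (1.13 to 1.33). The part of these markers in the differences below was not tested. The uroplakin UPK2 was at 4.19 RPKM (15 reads) in the ANGPTL4 library and 5.09 RPKM (37 reads) in the vector control library. UPK1A had 1 read in each library, and UPK3A was listed at 0 in both. Of the 6 endothelial markers analysed none reached 1 RPKM, and TEK, TIE1 and CLDN5 were listed at 0. All 5 adipocyte markers were listed at 0 in both libraries. Of 5 leukocyte and 5 fibroblast markers, CD14 and COL1A1 alone reached 1 RPKM, COL1A1 at 4.06 RPKM in the ANGPTL4 library and 4.14 RPKM in the vector control library.

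ANGPTL4 (chromosome 19, 8428173 to 8439257, hg19) was at 91.2 RPKM from 732 reads in the ANGPTL4 library, against 3.92 RPKM from 64 reads in the vector control library. The ratio was 23.2, with an exact 95% interval of 18.0 to 30.5 that covers counting error only. Whether more cells carried the message or each cell held more of it cannot be told apart in a bulk sample. It held 226 of every 1000000 reads in the ANGPTL4 library and 9.74 in the vector control library. Its place by level among 11801 measured genes, those at 1 RPKM or more in at least 1 library, was 278 in the ANGPTL4 library and 7531 in the vector control library. It made up 0.0226% of all reads in the ANGPTL4 library, so its own reads took little room from other genes.

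The plasmid's message and the chromosomal message cannot be told apart in these values. The value was spread over 2482 annotated exon bases, which is also the GENCODE length. The tables allowed 1241 bases as well, with 366 reads in the ANGPTL4 library and 32 in the vector control library and an interval of the ratio of 16.2 to 34.5. How many of these bases the plasmid carries is not stated in the labels. The row of RAB11B-AS1, an antisense gene, shares the last base of the ANGPTL4 region and was at 0.268 RPKM in the ANGPTL4 library and listed at 0 in the vector control library. Whether strand was used in counting is not known here. Of the 10 other angiopoietins and angiopoietin-like genes none reached 1 RPKM in either library, and 7 were listed at 0 in both. ANGPTL2 was at 0.318 RPKM in the ANGPTL4 library and 0.313 RPKM in the vector control library, from 4 reads and 8 reads. A single ANGPTL6 read was found, in the ANGPTL4 library.

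**Figure D1:**
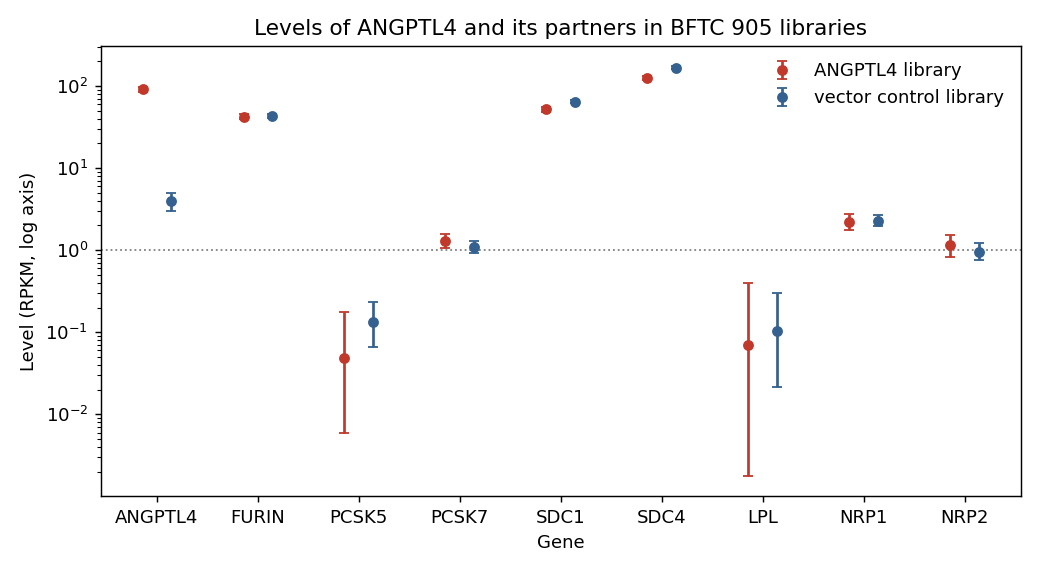
Level of each of the 9 genes in RPKM (log axis) in the ANGPTL4 library (red, left) and the vector control library (blue, right), with exact 95% Poisson intervals of the reads, which cover counting error only; the dotted line is 1 RPKM. ANGPTL4 is at 91.2 RPKM in the ANGPTL4 library and 3.92 RPKM in the vector control library. SDC4 and SDC1 are lower in the ANGPTL4 library, with intervals that do not overlap between the libraries. The intervals of each remaining partner overlap between the libraries.

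A log2 ratio here is that of RPKM + 1 in the ANGPTL4 library over RPKM + 1 in the vector control library, which understates differences of low genes. On this scale ANGPTL4 was at 4.23, first of the 11801 genes, and it was the single member at least 2-fold higher. The plasmid overexpresses ANGPTL4, so its higher value was built into the design. A level at least 2-fold higher was found for 1.19% of the 11801 genes and for none of the 6 measured partners. No member was at least 2-fold lower, against 1.92% of those genes. These shares are 141 higher and 226 lower genes, or 182 higher and 139 lower after centring on the median gene. To name the genes next in ratio, clone-based names, small RNAs, mitochondrial tRNA and rRNA, and symbols starting with SN, MIR, LL or XX were left out. Among the symbols kept, the next 3 at 10 RPKM or more in a library were COX6A1P2 (log2 ratio 3.14), RPL15P3 (2.73) and NDUFC2-KCTD14 (2.45). These 3 are pseudogenes or read-through transcripts whose reads can be shared with other loci. The median log2 ratio of the 11801 genes was -0.11, and the median plain ratio of RPKM over the 11713 of them above 0 in both libraries was 0.912, so ratios of the partners are read against 0.912 as well as against 1.

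The partners other than PCSK5 and LPL kept the same order of size. In the ANGPTL4 library the order by RPKM was SDC4, ANGPTL4, SDC1, FURIN, NRP1, PCSK7, NRP2, LPL and PCSK5, and in the vector control library it was SDC4, SDC1, FURIN, ANGPTL4, NRP1, PCSK7, NRP2, PCSK5 and LPL. PCSK7 and NRP2 overlapped in their counting intervals in both libraries, as did PCSK5 and LPL, so these neighbours did not differ beyond counting error. Summed over the 8 partners the level was 223.5 RPKM in the ANGPTL4 library and 279.8 RPKM in the vector control library, and the syndecans made up 78.9% of it in the ANGPTL4 library and 82.8% in the vector control library. In the ANGPTL4 library ANGPTL4 alone amounted to 28.98% of the 9 genes' summed RPKM, against 1.38% in the vector control library.

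FURIN and PCSK7 differed by less than counting error between the libraries, and FURIN was by far the most abundant of the 3. FURIN (chromosome 15, 91411822 to 91426688) was at 42.5 RPKM from 640 reads in the ANGPTL4 library and 43.6 RPKM from 1335 reads in the vector control library. The ratio was 0.974 (0.885 to 1.07), an interval that held both 1 and the median gene's 0.912, and its log2 ratio of -0.036 became 0.12 when the libraries were scaled to their upper quartiles. FURIN ranked 722 by level in the ANGPTL4 library and 781 in the vector control library. The level of ANGPTL4 was 2.15 times that of FURIN in the ANGPTL4 library (1.93 to 2.39) and 0.0900 times that of FURIN in the vector control library (0.0689 to 0.116). The message of the substrate thus stood above that of FURIN in the ANGPTL4 library and below it in the vector control library.

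PCSK7 (chromosome 11, 117075053 to 117103241), a widely expressed convertase of the same family, was at 1.303 RPKM from 94 reads in the ANGPTL4 library and 1.10 RPKM from 161 reads in the vector control library. The ratio was 1.19 (0.910 to 1.54). Its exon length in the tables came out at 22303 bases, and a level per kilobase is low for that many reads. It held 29.1 of every 1000000 reads in the ANGPTL4 library and 24.5 in the vector control library. The smooth muscle gene TAGLN overlaps the end of the PCSK7 region and was at 0.553 RPKM in the ANGPTL4 library and 0.583 RPKM in the vector control library. PCSK5 (chromosome 9, 78505560 to 78977255), another convertase of the secretory pathway, had 2 reads in the ANGPTL4 library (0.0487 RPKM) and 11 in the vector control library (0.132 RPKM). The ratio of 0.370 had an interval of 0.0398 to 1.69, so a difference was not detectable at this depth. FURIN was 32.6 times as high as PCSK7 per kilobase in the ANGPTL4 library (26.2 to 40.9) and 39.7 times as high in the vector control library (33.7 to 47.0).

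Of the 9 proprotein convertases listed, 5 reached 1 RPKM, 2 of them higher and 3 lower in the ANGPTL4 library, and none differed 2-fold. Relative to the median gene 3 of the 5 were higher. Their median log2 ratio was -0.036, against -0.11 over all genes. MBTPS1, the site-1 protease of the Golgi, was at 15.1 RPKM in the ANGPTL4 library and 13.6 RPKM in the vector control library (ratio 1.11, 0.995 to 1.24). PCSK6 was lower, at 3.24 RPKM in the ANGPTL4 library and 4.02 RPKM in the vector control library. Its ratio was 0.806 (0.680 to 0.953), an interval that included the median gene's 0.912.

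**Figure D2:**
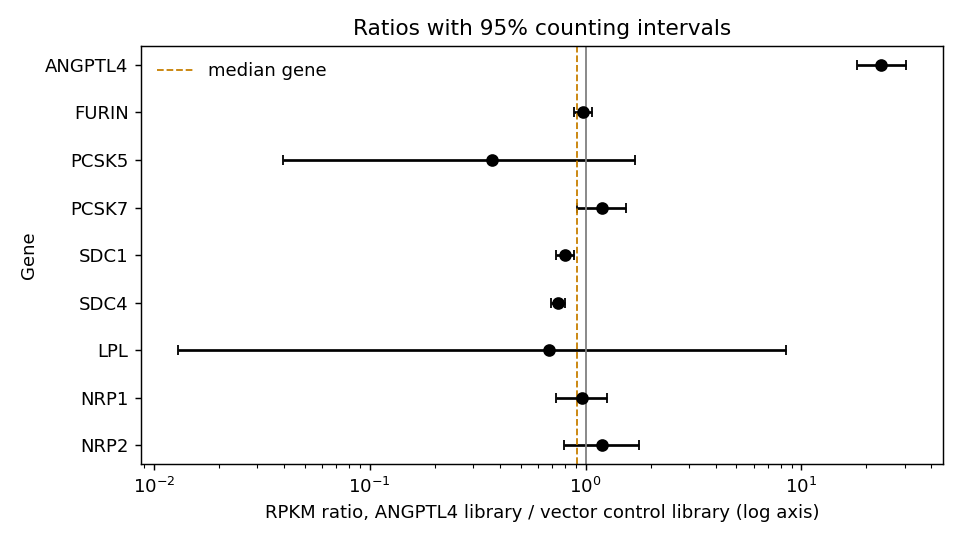
Ratio of RPKM in the ANGPTL4 library to that in the vector control library for the 9 genes (log axis), with exact 95% intervals, which cover counting error only; the solid line is 1 and the dashed line the median gene's 0.912. ANGPTL4 stands alone at 23.2, SDC1 and SDC4 lie below both lines, and PCSK5 and LPL have wide intervals.

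Both syndecans were lower in the ANGPTL4 library by more than counting error, and stayed below 0 on the log2 scale under each scaling tried, yet they lay within the bulk of all genes. SDC4 (chromosome 20, 43953928 to 43977064), a syndecan of focal adhesions, was at 124.4 RPKM from 1051 reads in the ANGPTL4 library and 167.0 RPKM from 2869 reads in the vector control library. The ratio was 0.745 (0.693 to 0.799), or 0.817 of the median gene's ratio. SDC1 (chromosome 2, 20400558 to 20425194), the main syndecan of epithelia, was at 51.9 RPKM from 603 reads in the ANGPTL4 library and 64.6 RPKM from 1526 reads in the vector control library. The ratio was 0.803 (0.730 to 0.883), or 0.881 of the median gene's ratio.

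The log2 ratios, -0.42 for SDC4 and -0.31 for SDC1, lay above those of 17.4% and 26.6% of the 11801 genes. Of 170 genes whose mean level was within 1.5 times that of SDC4, 22.9% had a lower log2 ratio. The corresponding share was 25.5% of 537 genes for SDC1. Set against FURIN within each library, which does not depend on scaling between libraries, SDC4 was 2.93 times as high in the ANGPTL4 library (2.65 to 3.24) and 3.83 times as high in the vector control library (3.59 to 4.09). SDC1 was 1.22 times as high as FURIN in the ANGPTL4 library (1.09 to 1.37) and 1.48 times as high in the vector control library (1.38 to 1.60). The proportion of the syndecans to each other changed less. SDC4 was 2.40 times SDC1 in the ANGPTL4 library (2.17 to 2.65) and 2.59 times SDC1 in the vector control library (2.43 to 2.75), with intervals that overlapped. ANGPTL4 reached 0.733 times the level of SDC4 in the ANGPTL4 library (0.666 to 0.807), against 0.0235 times in the vector control library (0.0180 to 0.0301).

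Of the 12 heparan sulfate proteoglycans listed, 7 reached 1 RPKM, 2 higher and 5 lower, with a median log2 ratio of -0.087 and none at 2-fold, and 4 of the 7 lay above the median gene. GPC1, a glypican held in the membrane by a lipid anchor, was at 24.97 RPKM in the ANGPTL4 library and 24.99 RPKM in the vector control library (ratio 0.999, 0.898 to 1.11). AGRN, a matrix proteoglycan, was at 22.1 RPKM in the ANGPTL4 library and 25.1 RPKM in the vector control library (0.881, 0.809 to 0.960). The interval of AGRN included the median gene's 0.912. SDC3 was at 4.59 RPKM in the ANGPTL4 library and 3.96 RPKM in the vector control library, and SDC2 had no read in the ANGPTL4 library and 4 reads in the vector control library.

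The enzymes that build and edit heparan sulfate chains were measured for 17 of 19 genes, 6 higher and 11 lower, with a median log2 ratio of -0.091 and none at 2-fold, and 10 of the 17 lay above the median gene. SULF2, an extracellular sulfatase that trims the chains, was at 31.4 RPKM in the ANGPTL4 library and 25.9 RPKM in the vector control library (ratio 1.21, 1.10 to 1.33). NDST1, which starts the sulfation of the chain, was at 21.4 RPKM in the ANGPTL4 library and 25.9 RPKM in the vector control library (0.827, 0.753 to 0.908). Of 6 proteins that bind the cytoplasmic ends of syndecans or neuropilins, 3 were higher and 3 lower. SDCBP, or syntenin, the PDZ adaptor of the syndecan tail, was at 22.8 RPKM from 353 reads in the ANGPTL4 library and 46.8 RPKM from 1469 reads in the vector control library. Its ratio was 0.488 (0.434 to 0.549). Of the 93 other genes on the 8 lists, 55 of them measured, it was the one at least 2-fold from equal on the log2(RPKM + 1) scale, against 3.11% of the 11801 genes. On the plain scale EXTL2, an enzyme of heparan sulfate chain formation, was as far from equal, at 0.687 RPKM from 11 reads in the ANGPTL4 library and 1.41 RPKM from 46 reads in the vector control library (ratio 0.486, 0.227 to 0.953). The log2 ratio of SDCBP, -1.002, lay at the edge of the 2-fold rule and was -0.89 relative to the median gene. The log2 ratio of EXTL2 was -0.52, and the interval of its plain ratio included the median gene's 0.912. GIPC1, a PDZ adaptor that binds NRP1 and syndecan-4, was at 49.1 RPKM in the ANGPTL4 library and 46.6 RPKM in the vector control library (ratio 1.053, 0.975 to 1.14).

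LPL (chromosome 8, 19759228 to 19824769), the enzyme that ANGPTL4 inhibits and that hydrolyses triglycerides of lipoproteins in capillaries, had few reads. It had 1 read in the ANGPTL4 library (0.0706 RPKM) and 3 reads in the vector control library (0.104 RPKM). The ratio of 0.678 had an interval of 0.0129 to 8.44, so a difference was not detectable at this depth. Its capillary anchor GPIHBP1, its activator APOC2, its inhibitor APOC3 and APOA5 were listed at 0 in both libraries. Of 16 genes of lipases and lipase handling 8 reached 1 RPKM, 1 higher and 7 lower, with a median log2 ratio of -0.19 and none at 2-fold, and 2 of the 8 lay above the median gene. LIPG, the endothelial lipase of the same family, was at 8.37 RPKM in the ANGPTL4 library and 10.4 RPKM in the vector control library (ratio 0.805, 0.703 to 0.919). The interval of LIPG included the median gene's 0.912. SEL1L, which in mice is needed for the lipase to leave the endoplasmic reticulum, was at 11.8 RPKM in the ANGPTL4 library and 13.96 RPKM in the vector control library.

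**Figure D3:**
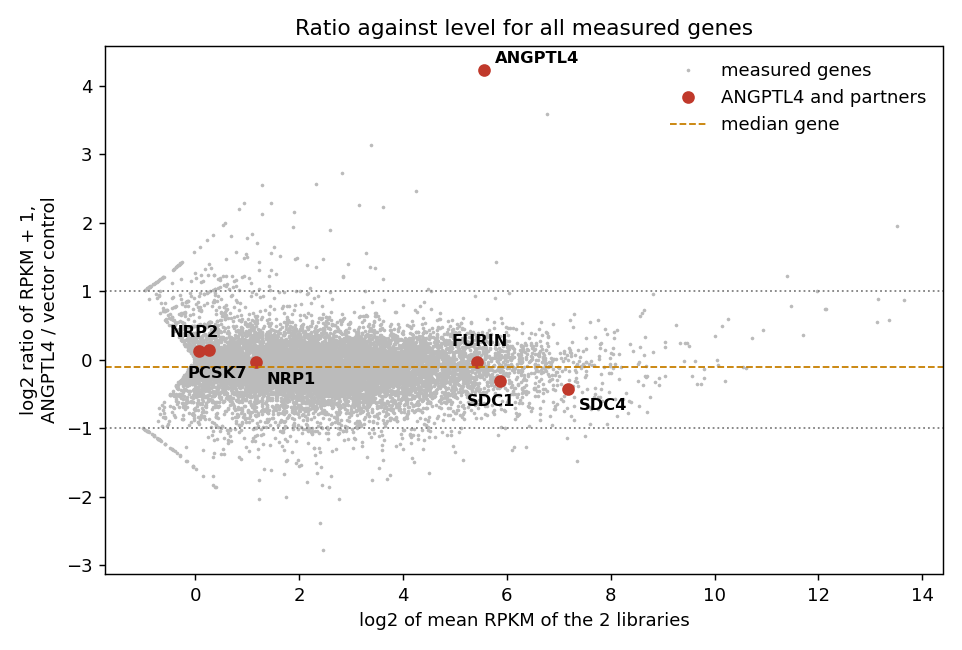
Log2 ratio of RPKM + 1 against log2 of the mean RPKM for the 11801 measured genes (grey) and the 7 members among them (red); dotted lines mark 2-fold and the dashed line the median gene at -0.11. ANGPTL4 at 4.23 is the highest point, and the other 6 members lie within the main band, SDC4 at -0.42 the lowest of them.

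The neuropilins were present at low levels and did not differ beyond counting error. NRP1 (chromosome 10, 33466420 to 33625190), which binds semaphorin 3A and VEGF-A, was at 2.20 RPKM from 82 reads in the ANGPTL4 library and 2.29 RPKM from 173 reads in the vector control library. The ratio was 0.963 (0.732 to 1.26), and the log2 ratio of -0.037 turned to 0.078 after upper-quartile scaling. NRP2 (chromosome 2, 206546714 to 206662857), which binds semaphorin 3F and VEGF-C, was at 1.14 RPKM from 42 reads in the ANGPTL4 library and 0.963 RPKM from 72 reads in the vector control library. The ratio was 1.19 (0.790 to 1.76). The exon length taken for NRP2, 11380 bases, was not close to its GENCODE length of 13896 bases. The tables also allowed 5690 bases, with 21 reads in the ANGPTL4 library and 36 in the vector control library and an interval of 0.658 to 2.09. A length of 17070 bases was allowed as well, with 63 and 108 reads in the same order and an interval of 0.855 to 1.63. NRP1 was 1.93 times NRP2 in the ANGPTL4 library (1.31 to 2.87) and 2.37 times NRP2 in the vector control library (1.79 to 3.17), given the length of 11380 bases for NRP2. ANGPTL4 was 41.4 times NRP1 in the ANGPTL4 library (32.9 to 52.7) and 1.72 times NRP1 in the vector control library (1.27 to 2.30).

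The co-receptors and ligands that share the neuropilins were measured for 13 of 20 genes, the neuropilins included, with 5 higher and 8 lower, a median log2 ratio of -0.037 and none at 2-fold, and 8 of the 13 lay above the median gene. PLXNA1, a plexin that signals for semaphorins beside NRP1, was at 23.5 RPKM in the ANGPTL4 library and 28.2 RPKM in the vector control library (ratio 0.833, 0.768 to 0.904). VEGFA was at 27.4 RPKM in the ANGPTL4 library and 23.1 RPKM in the vector control library (1.19, 1.11 to 1.27). VEGFB and VEGFC were also higher, at log2 ratios of 0.20 each. The intervals of their plain ratios, 0.923 to 1.44 and 0.916 to 1.46, included 1 and began just above the median gene's 0.912. The VEGF receptor KDR had 7 reads in the ANGPTL4 library and 5 in the vector control library, and FLT1 was listed at 0 in both.

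Other reported binding partners of ANGPTL4 were integrin subunits, matrix proteins and endothelial junction proteins, and 5 of 9 reached 1 RPKM. ITGB1, the integrin beta 1 subunit, was at 89.1 RPKM in the ANGPTL4 library and 80.6 RPKM in the vector control library (ratio 1.10, 1.04 to 1.17). FN1, fibronectin, was at 67.6 RPKM in the ANGPTL4 library and 63.1 RPKM in the vector control library (1.07, 1.03 to 1.11). The integrin subunits ITGB5, ITGAV and ITGA5 were lower, at ratios of 0.749, 0.808 and 0.822, with intervals that ended below 1. The intervals of ITGB5 (0.606 to 0.921) and ITGA5 (0.713 to 0.945) included the median gene's 0.912, and that of ITGAV (0.724 to 0.901) did not. The median log2 ratio of the 5 was -0.26, none was at 2-fold, and 2 lay above the median gene. The endothelial junction gene CDH5 had 1 read in the ANGPTL4 library and 2 reads in the vector control library, and CLDN5 and the plasma protein gene VTN were listed at 0 in both.

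**Figure D4:**
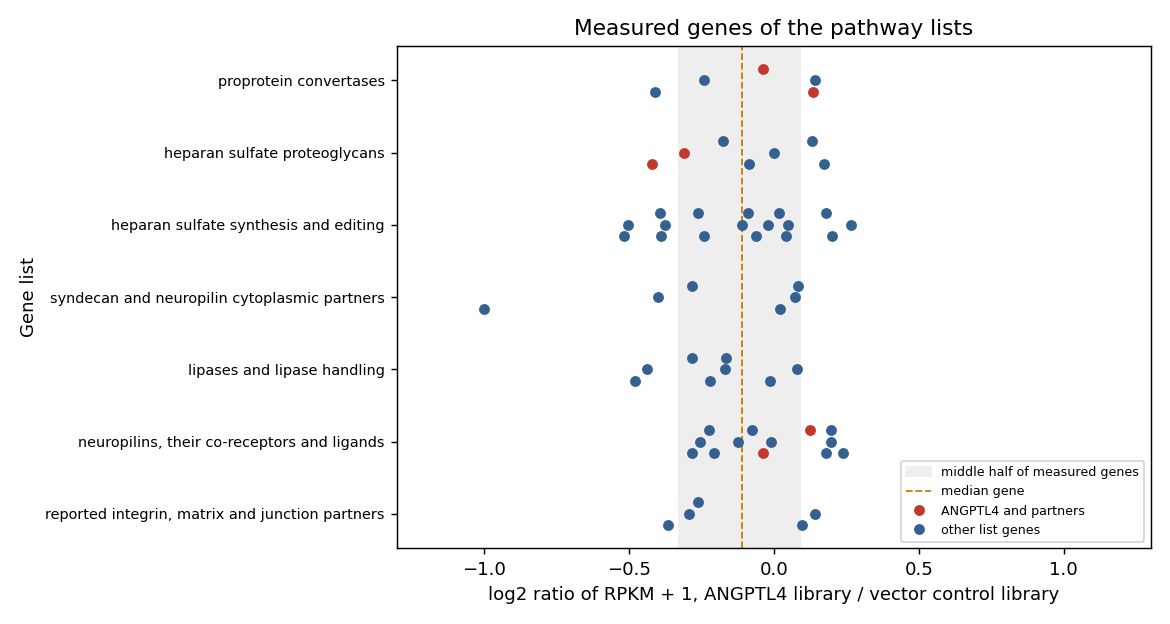
Log2 ratio of RPKM + 1 for the measured genes of 7 lists around ANGPTL4 (members in red, other genes in blue, spread up and down for legibility); the shaded band is the middle 50% of the 11801 genes, from -0.33 to 0.09, and the dashed line their median at -0.11. SDCBP at -1.002 is the farthest point, and every other gene lies between -0.52 and 0.27.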

How the data were processed

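RNA sequencing of total RNA was deposited as 1 table per library. Values are RPKM computed by the authors, per the file headers, and per the submitters' processing notes the build was hg19. Aligner, counter, annotation release and strandedness are not given in the sources used here. As RPKM is relative to the library's reads, very abundant genes lower all others. Rows with one symbol were summed. Reads were recovered by seeking the library total at which all 13 mitochondrial protein genes gave whole reads (tolerance 0.0001). Of the exon lengths that made a gene's values whole reads in each library (tolerance 0.002), the one nearest to GENCODE release 29 was taken. Ratio intervals are exact conditional binomial (95%), and level intervals exact Poisson, in SciPy 1.17.1. Procedures were tested on simulated data. Genes with at least 1 RPKM in a library were called measured, and the size rule was 2-fold on log2(RPKM + 1), with a pseudocount of 1. No test between groups can be made with 1 library each. From each list the 2 most abundant non-members were named, with up to 2 of either direction differing 1.5-fold, and further list genes were named after their values were seen. Members and lists were chosen with earlier results of these data known. GENCODE coordinates were not mixed with those of hg19. Some genes that this rule selects are counted in their lists and not reported here.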

Additional observations from a re-analysis of the deposited data

How the results depend on the processing

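No paired analysis was possible because there is 1 library per group. Members at least 2-fold higher (1) and lower (0) were equally many under all 8 alternatives. The log2 ratio of ANGPTL4, the one measured gene of its family list, was 3.43 with a pseudocount of 5 and 4.50 with 0.1, and the list's median was 4.34 centred on the median gene, 4.39 scaled to the upper quartile, 4.30 rescaled without mitochondrial genes and 0.098 with no minimum, where genes of few reads enter. Centring put SDC4 at -0.31, and upper-quartile scaling put SDC4 at -0.26, SDC1 at -0.15 and FURIN at 0.12, since these scalings raise the median of all genes by 0.11 and 0.14. The other partners moved by less than their counting intervals. The median of the reported binding partners was 0.0011 with no minimum. Over all genes, 284 were at least 2-fold higher and 532 lower with a pseudocount of 0.1, 15 and 26 with 5, and 34 and 126 with a minimum of 5 RPKM. Centring left 182 higher and 139 lower, and upper-quartile scaling 185 higher and 144 lower, against 141 higher and 226 lower as deposited. Rescaling without mitochondrial genes kept more genes lower, with 169 higher and 210 lower. Depth limits PCSK5 and LPL, with 1 to 11 reads a library.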
